A study of Mus musculus with 20 samples.

Results

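The integrated stress response and serine synthesis were followed through 10 mouse genes, read on Affymetrix Mouse Genome 430 2.0 arrays from the tissues and sphere cultures of MYCN transgenic and wild-type mice. The genes were Atf4, Ddit3, Trib3, Chac1, Asns and Slc7a11 on the stress response side and Phgdh, Psat1, Shmt2 and Mthfd2 on the serine and one-carbon side. All 10 were on the array, out of 18193 named genes, with 24 probe sets that carry 1 of these symbols and 2 further Phgdh probe sets that carry a second symbol and were not used. Chac1 entered because it was among the genes highest in tumorspheres against tumors, and its values in tumorspheres and in hemizygous tumors, the tumors of the same genotype, are description and were not tested. Which tumors that choice used is not stated, and tests of Chac1 that involve homozygous tumors rest on reading them as hemizygous.

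The 20 arrays held 7 groups. Transgenic samples were 2 tumorsphere cultures and 4 tumors of MYCN Tg hemizygote mice, 2 tumors of MYCN Tg homozygote mice with a knockout of Mdk (midkine, a secreted growth factor), and 4 tumors and 2 ganglia of MYCN Tg homozygote mice. Wild-type samples were 2 neurosphere cultures and 4 ganglia. Transgenic mice were of a mixed 129+Ter/SvJcl background and wild-type mice of 129+Ter/SvJcl, so transgene and background cannot be told apart. The promoter of the transgene, the ages, the tissue that gave the neurospheres and the number of animals behind a group are not stated in the sources used here. The p-values therefore cover only the spread among arrays within groups, pooled over the 7 groups, and that spread may be technical.

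The integrated stress response starts when kinases that sense amino acid shortage, misfolded protein, viral RNA or haem shortage phosphorylate the initiation factor eIF2, which slows most translation while the mRNA of the transcription factor ATF4 is translated more. ATF4 then switches on genes for amino acid uptake and synthesis, tRNA charging and, with its partner CHOP (the product of Ddit3), cell death. The serine pathway draws carbon from glycolysis through PHGDH, PSAT1 and PSPH, and SHMT2 and MTHFD2 pass one-carbon units from serine to folate in mitochondria. Both pathways meet because ATF4 and MYC proteins act on serine synthesis genes, which has been described in MYCN-driven neuroblastoma.

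The promoter letters are shown for the 4 members that hold the sequence TGATGNAA, the form in which ATF4 paired with a C/EBP protein is known to read DNA. RefSeq windows from 250 bases before to 50 after each annotated start (build GRCm38.p6) covered all 10 genes, with 11 starts. TGATGNAA was searched on both strands and was found in 4 of these 11 promoters, against 3.97% of 32851 mouse promoters. Capitals mark each match, and every line reads 5′ to 3′ on the strand of its gene. Chac1 (chr2:119351013-119351092, plus strand) has it at 193 to 186 bases before the start on the opposite strand, and Slc7a11 (chr3:50443626-50443705, minus strand) has a pair in opposite orientation. Asns (chr6:7693210-7693289, minus strand) has it next to the start, and Trib3 (chr2:152344028-152344057, minus strand) at positions 15 to 22 after the start, on the opposite strand.
Chac1: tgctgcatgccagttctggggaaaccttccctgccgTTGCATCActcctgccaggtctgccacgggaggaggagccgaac
Slc7a11: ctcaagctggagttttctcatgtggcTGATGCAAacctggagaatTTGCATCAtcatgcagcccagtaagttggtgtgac
Asns: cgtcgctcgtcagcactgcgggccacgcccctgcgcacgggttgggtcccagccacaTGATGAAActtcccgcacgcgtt
Trib3: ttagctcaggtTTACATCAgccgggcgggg
The E-box CACGTG, the sequence that MYC proteins are known to bind, was found in 0 of the 11 windows, against 7.15% of all promoters. A match is a stretch of letters and says nothing on binding, and a missing match says only that these letters are not in the window.

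Brightest probe sets of Atf4, Trib3, Phgdh, Psat1 and Shmt2 have names ending in x_at or s_at, which mark probe sets that may match other transcripts. Values are deposited probe set intensities, scaled by the authors to 1 trimmed mean per array, and a gene is read by its brightest probe set. Group differences are on the log2(intensity + 16) scale, which understates the change of dim genes. A gene passed a comparison when its limma p, adjusted by Benjamini-Hochberg over 15132 genes, was under 0.05. Mdk read 42.6 and 35.5 in the knockout tumors, against 268 to 297 in homozygous tumors, and where its probe set lies relative to the deletion is not known here. Sympathetic neuron markers summed to 46.8 and 63.6 in neurospheres and to 13572 to 21726 in wild-type ganglia, while Sox2, a neural stem cell factor, read 3783 and 3296 in neurospheres and at most 195 in those ganglia. Of the 6 stem or progenitor markers tested, 3 were higher in neurospheres, 1 was lower and 2 did not pass, where 39.2% of all genes passed. Prom1 went the other way from Sox2, with 633 and 395 in neurospheres against 782 to 1204 in those ganglia. The neurosphere arrays differed from each other (correlation 0.943 over all genes, against 0.985 between the tumorspheres). Ttr (transthyretin, a product of choroid plexus and liver, chosen after its values were seen) read 7007 in neurosphere 1 and 4.27 in neurosphere 2, the GAPDH 3′ to 5′ control ratio 3.37 and 11.5, and the actin ratio 7.77 and 3.78. Tests that involve neurospheres are therefore given with and without either one. The main fit pools the spread within all 7 groups, so tissue comparisons also carry this neurosphere difference. The SD of log2 values was 4.15 in neurospheres and 0.61 in homozygous tumors for Trib3, and 0.15 and 0.17 for Psat1.

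Atf4, the central transcription factor of the response, was highest in tumorspheres and in neurosphere 2. Its intensity was 1171 and 1291 in tumorspheres, 378 to 486 in hemizygous tumors, 924 and 689 in Mdk knockout tumors, 302 to 727 in homozygous tumors, 519 and 532 in homozygous ganglia, 344 and 1501 in neurospheres 1 and 2, and 422 to 512 in wild-type ganglia. A second probe set read 1255 and 1195 in tumorspheres, 143 and 1498 in the neurospheres, and 686, 548, 209.6 and 188 in wild-type ganglia 1 to 4, so it split the wild-type ganglia where the brighter one did not. The third never exceeded 10.7 and did not pass the filter on low values.

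Ddit3 encodes CHOP, a transcription factor that promotes cell death under prolonged stress. It read 163 and 158 in tumorspheres, 38.6 to 52.7 in hemizygous tumors, 55.2 and 52.7 in Mdk knockout tumors, 29.0 to 73.8 in homozygous tumors, 76.0 and 73.4 in homozygous ganglia, 26.4 and 319 in neurospheres 1 and 2, and 24.3 to 88.5 in wild-type ganglia. Tumors and ganglia overlapped. Neurosphere 1 was near the lowest of all 20 arrays and neurosphere 2 was the highest.

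Trib3, a pseudokinase that ATF4 and CHOP switch on and that restrains AKT signalling, had the widest span. It read 126 and 209 in tumorspheres, 5.77 to 22.8 in hemizygous tumors, 21.6 and 28.9 in Mdk knockout tumors, 1.87 to 28.6 in homozygous tumors, 38.7 and 30.4 in homozygous ganglia, 1.74 and 1024 in neurospheres 1 and 2, and 4.47 to 43.4 in wild-type ganglia. Its second probe set gave 4.4 and 1136 in the neurospheres. Outside tumorspheres and neurosphere 2 both probe sets read 43.4 or less on every array.

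Chac1, a glutathione-degrading enzyme downstream of ATF4 and CHOP, read 334 and 618 in tumorspheres, 30.3, 33.9, 25.7 and 28.1 in hemizygous tumors, 34.2 and 44.9 in Mdk knockout tumors, 36.2, 44.8, 27.4 and 38.6 in homozygous tumors, 39.3 and 48.8 in homozygous ganglia, 40.9 and 370 in neurospheres 1 and 2, and 73.3, 49.8, 61.2 and 55.1 in wild-type ganglia. By mean log2 level tumorspheres came first, then neurospheres, wild-type ganglia, homozygous ganglia, Mdk knockout tumors, homozygous tumors and hemizygous tumors. Neurosphere 2 lay between the tumorspheres, and neurosphere 1 among the tumors and ganglia. From homozygous ganglia downwards each neighbour in that order overlapped the next. Wild-type ganglia did not overlap homozygous tumors, but the difference did not pass (log2 −0.53, 95% interval −1.3 to 0.25, adjusted p = 0.25). The SD of log2 values was 0.19 and 0.2 in these groups and 1.95 in neurospheres, and the test pools all groups.

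Asns makes asparagine and is a standard readout of ATF4. It read 1608 and 1758 in tumorspheres, 577 to 1034 in hemizygous tumors, 511 and 554 in Mdk knockout tumors, 500.1 to 722 in homozygous tumors, 811 and 892 in homozygous ganglia, 686.5 and 3349 in neurospheres 1 and 2, and 656 to 948 in wild-type ganglia. Slc7a11, the cystine importer that feeds glutathione synthesis, was at 8.79 or less on every array but the neurospheres, which read 25.3 and 94.2. It passed the filter on low values through the 2 neurospheres alone, so its differences from them are given as description. Its second probe set gave 12.5 and 72.5 in neurospheres and at most 7.94 elsewhere.

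**Figure D1:**
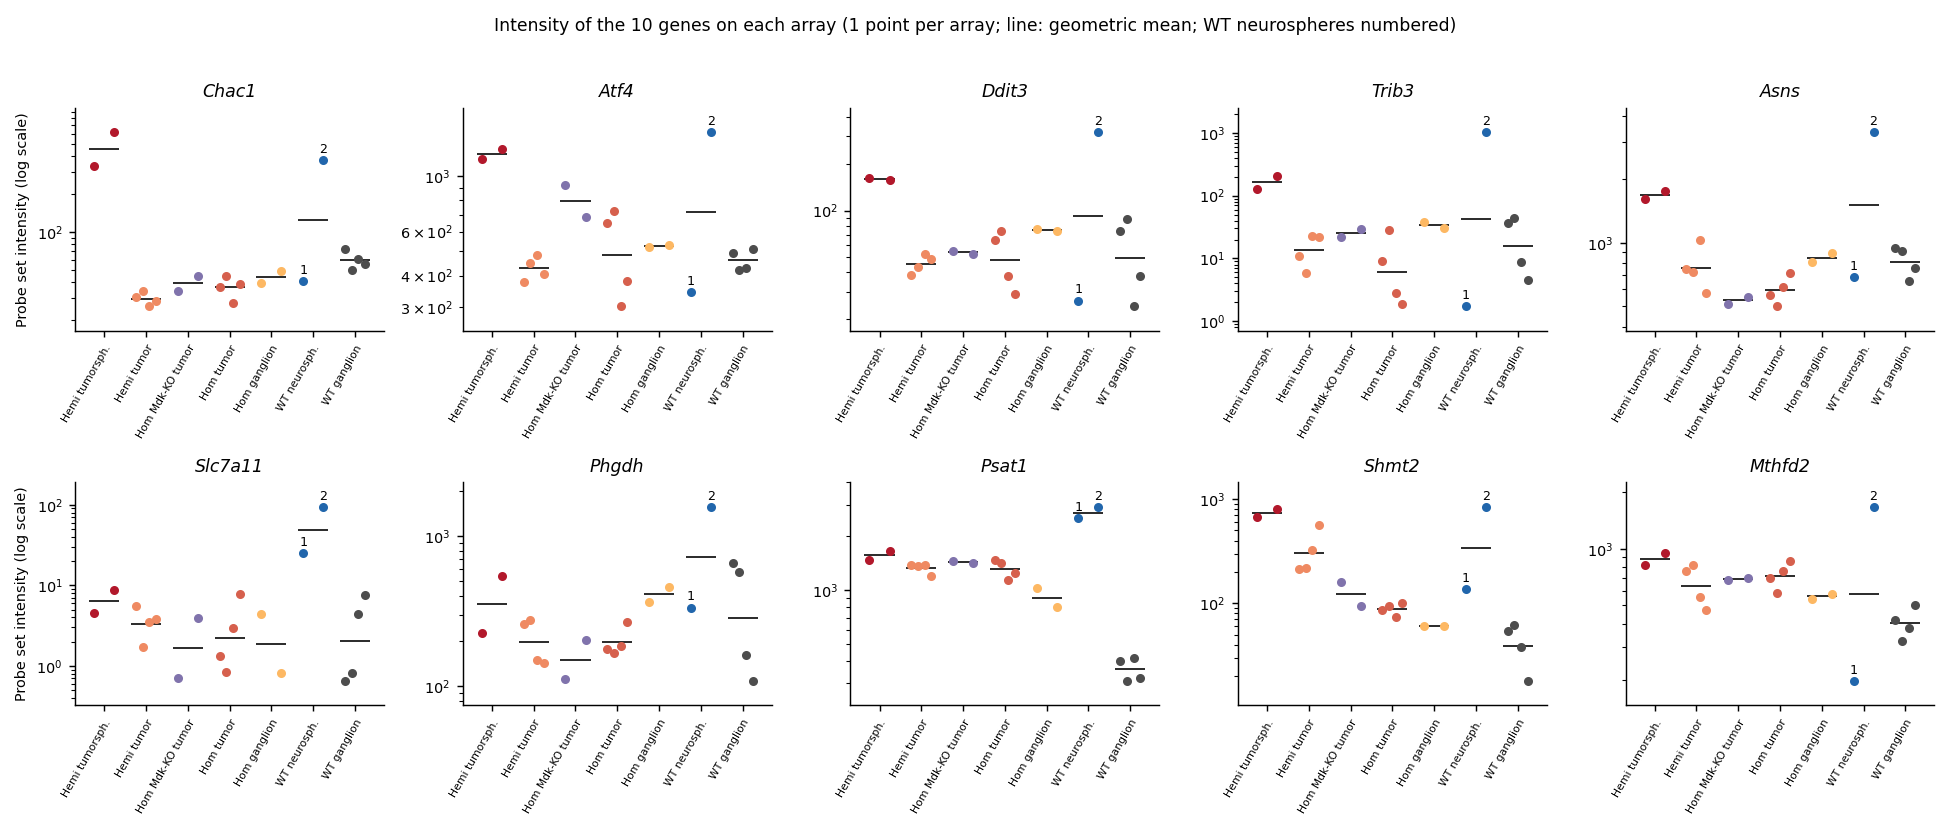
Probe set intensity (log axis) of the 10 genes on each of the 20 arrays, by group, with the geometric mean of each group as a line and the wild-type neurospheres numbered. Chac1, Atf4, Ddit3, Trib3 and Asns were high in both tumorspheres and in neurosphere 2 but not in neurosphere 1, whereas Psat1 was 310 to 417 in wild-type ganglia and 798 or more on every other array.

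Psat1, the aminotransferase of the second step of serine synthesis, was the member that separated MYCN tissue from wild-type ganglia. It read 1475 and 1662 in tumorspheres, 1388, 1354, 1381 and 1197 in hemizygous tumors, 1458.5 and 1413 in Mdk knockout tumors, 1477, 1413, 1144 and 1246 in homozygous tumors, 1027 and 798 in homozygous ganglia, 2514 and 2922 in neurospheres 1 and 2, and 401, 310.1, 417 and 323 in wild-type ganglia. Every transgenic sample was above every wild-type ganglion, and homozygous ganglia lay between tumors and wild-type ganglia. In these bulk samples, fewer cells of a type and less RNA per cell cannot be told apart.

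Against wild-type ganglia, Psat1 rose in homozygous tumors by log2 1.82 (SE 0.15, limma adjusted p = 1.7e-08), 3.54-fold on the plus 16 scale. It was 1 of 10 members to pass there, against 49.8% of all genes tested, and 23.1% of all genes were higher. In hemizygous tumors Psat1 rose by 1.84 (SE 0.15, limma adjusted p = 1.1e-08), and 2 of the 9 members tested passed, both higher, against 52.6% of all genes in either direction and 27% higher. The members' share was below the background in both comparisons, which share the wild-type ganglia. Other cell types moved with these results. In homozygous tumors 6 of 6 cell cycle markers rose, and 6 of 6 fibroblast, 4 of 5 Schwann and satellite glia and 5 of 6 sympathetic neuron markers fell. In hemizygous tumors the same lists gave 6 of 6 higher and 5 of 6, 4 of 5 and 5 of 6 lower. Cell cycle markers summed to 10763 to 11856 in hemizygous tumors, 10156 to 11014 in homozygous tumors and 462 to 1243 in wild-type ganglia, and glial markers to 635 to 1026, 935 to 1091 and 7416 to 9148. The actin 3′ to 5′ ratio was 1.96 to 2.69 in hemizygous tumors, 2.44 to 2.81 in homozygous tumors and 4.36 to 9.14 in wild-type ganglia. The part of these in the tumor results was not tested. The median difference of the members tested was −0.03 for homozygous and −0.1 for hemizygous tumors, beside −0.12 and −0.05 over all genes.

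In homozygous ganglia against wild-type ganglia Psat1 rose by 1.29 (SE 0.18, limma adjusted p = 0.00014), the 1 of 10 members that passed, where 5.01% of all genes did and 3.99% were higher. With only these 6 arrays in the fit, adjusted p was 0.069. Cell cycle markers moved with it: all 6 tested rose, and their sum was 4911 and 7375 in homozygous ganglia against 462 to 1243 in wild-type ganglia. Their part in the result was not tested. Its second probe set, which read 373 and 326 in homozygous ganglia against 89.9 to 153 in wild-type ganglia, gave log2 1.46 (limma adjusted p = 0.0055) with every probe set fitted by itself, an alternative chosen after seeing the data, which called 4.34% of 34922 probe sets.

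Between homozygous tumors and homozygous ganglia Psat1 was again the 1 of 10 members to pass, against 21.6% of all genes and 9.35% higher (log2 0.53, SE 0.18, limma adjusted p = 0.045). This call was lost without homozygous tumor 1, 2 or 4 (adjusted p = 0.1, 0.086 and 0.066) and without homozygous ganglion 1 or 2 (0.065 and 0.43). The other Psat1 probe set gave log2 1.04 (limma adjusted p = 0.019, where 18.8% of probe sets passed), with 638 to 888 in homozygous tumors against the 373 and 326 of homozygous ganglia.

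Phgdh encodes the dehydrogenase that commits glycolytic carbon to serine, and its probe sets did not read alike. The brightest read 227 and 545 in tumorspheres, 142 to 278 in hemizygous tumors, 112 and 202 in Mdk knockout tumors, 166 to 267 in homozygous tumors, 362 and 461 in homozygous ganglia, 334 and 1568 in neurospheres 1 and 2, and 662.5, 577, 162.5 and 109 in wild-type ganglia 1 to 4. The last group spans the whole range of the tumors, and the gene did not pass in either tumor group by this probe set (log2 −0.52, limma adjusted p = 0.41 for hemizygous tumors and −0.54, 0.39 for homozygous tumors). Against wild-type ganglia 1 and 2 alone, homozygous tumors were at −1.58 (limma adjusted p = 0.0092), and against ganglia 3 and 4 alone at 0.51 (0.37). These fits called 49.1% and 55.5% of all genes.

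The second and the third Phgdh probe set by mean level placed all 4 wild-type ganglia above all tumors. On the second, tumorspheres read 159.5 and 369, hemizygous tumors 31.1, 44.3, 45.2 and 52.2, Mdk knockout tumors 43.6 and 50.1, homozygous tumors 52.1, 38.4, 25.0 and 43.7, homozygous ganglia 156 and 195, neurospheres 1272 and 3277, and wild-type ganglia 278, 208, 158 and 143. On the third, the tumors of the 3 genotypes read between 36.1 and 60.4 and wild-type ganglia between 169.6 and 284. Fitted by probe set, Phgdh fell in homozygous tumors by 1.91 and 1.85 on these probe sets (limma adjusted p = 2e-05 and 1.3e-05 over 34922 probe sets) and in hemizygous tumors by 1.82 and 1.89 (3e-05 and 8.7e-06), where 46.7% and 47.4% of all probe sets passed. It also fell in homozygous tumors against homozygous ganglia by 1.8 and 1.57 (0.0019 and 0.003). Glial markers moved the same way, summing to 935 to 1091 in homozygous tumors, 6210 and 6307 in homozygous ganglia and 7416 to 9148 in wild-type ganglia, as did fibroblast markers, at 3961 to 4766, 13798 and 14925, and 14719 to 17548, and their part was not tested. The dimmest split the wild-type ganglia as the brightest did, with 242 and 259.9 in ganglia 1 and 2 and 43.6 and 43.9 in ganglia 3 and 4, and did not pass in homozygous tumors (log2 −0.76, limma adjusted p = 0.19). All 4 have names ending in x_at, and which of them reads Phgdh best was not tested.

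**Figure D2:**
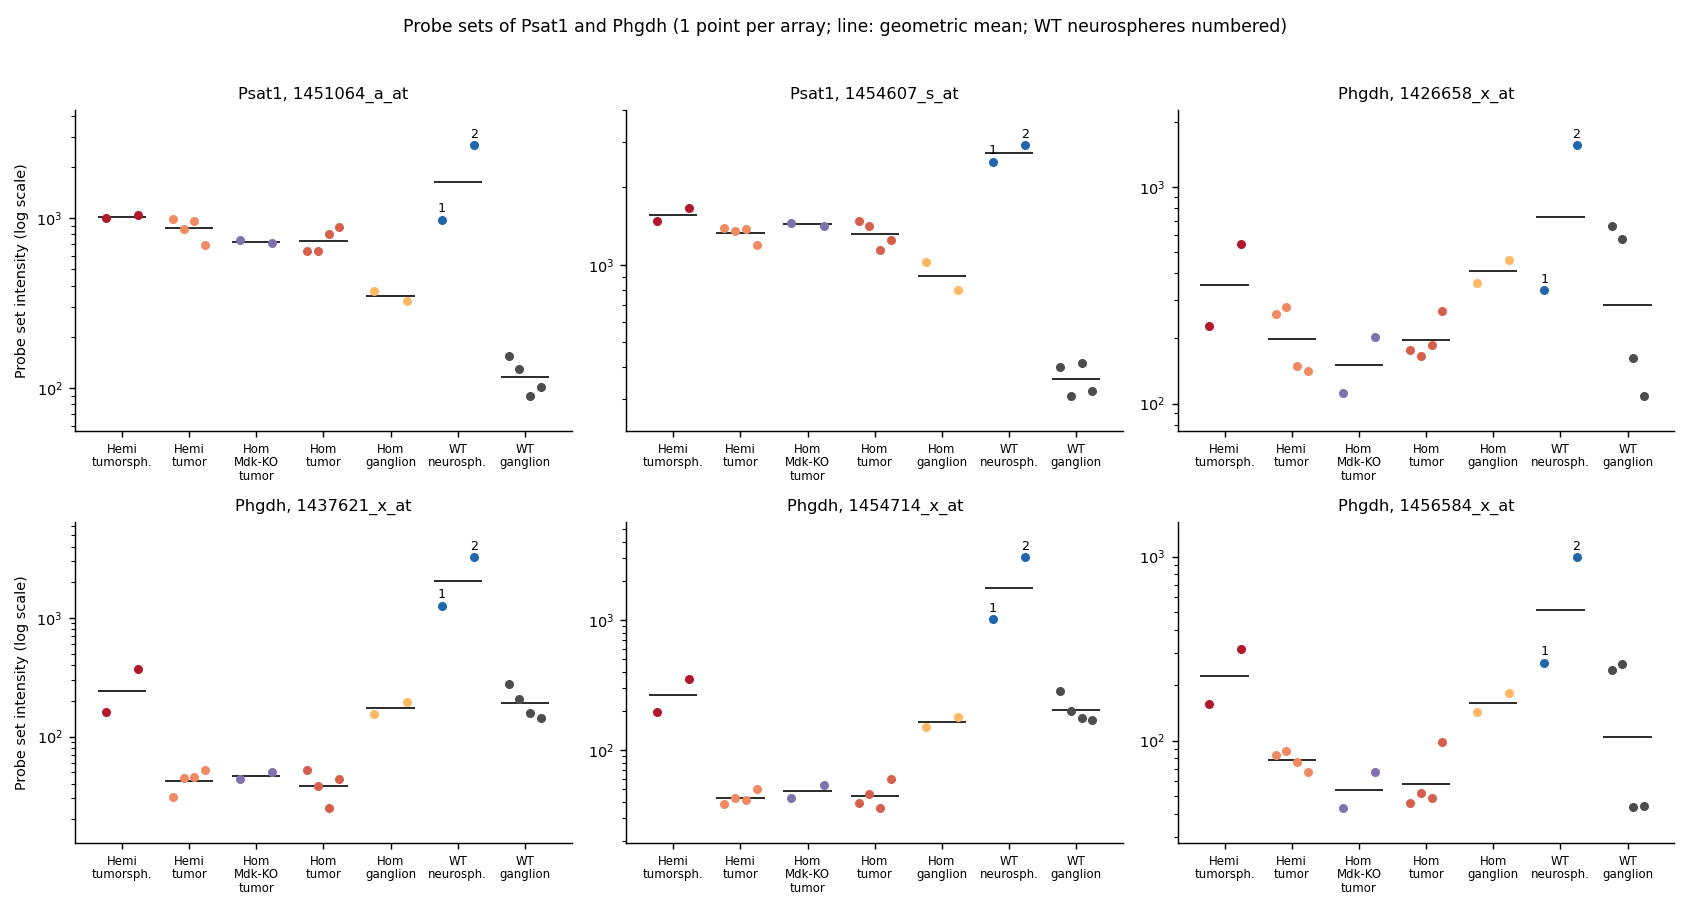
Intensity (log axis) on each array of the 2 probe sets of Psat1 and the 4 of Phgdh, by group, with the geometric mean as a line and the wild-type neurospheres numbered. Both Psat1 probe sets place wild-type ganglia lowest, whereas the Phgdh probe sets agree in placing neurosphere 2 highest but differ in how wild-type ganglia stand to tumors.

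Shmt2, the mitochondrial enzyme that splits serine into glycine and a one-carbon unit, was higher in hemizygous than in homozygous tumors. It read 677 and 812 in tumorspheres, 214, 219.7, 326 and 565 in hemizygous tumors, 160.4 and 93.7 in Mdk knockout tumors, 86.1, 93.8, 74.1 and 101 in homozygous tumors, 60.3 and 61.0 in homozygous ganglia, 137 and 844 in neurospheres 1 and 2, and 54.1, 61.8, 38.4 and 18.0 in wild-type ganglia. By mean level the order was tumorspheres, neurospheres, hemizygous tumors, Mdk knockout tumors, homozygous tumors, homozygous ganglia and wild-type ganglia. The neurospheres overlapped hemizygous tumors, Mdk knockout tumors overlapped homozygous tumors, and homozygous ganglia overlapped wild-type ganglia.

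Shmt2 rose in hemizygous tumors against wild-type ganglia by 2.52 (SE 0.4, limma adjusted p = 3.9e-05), 5.72-fold on the plus 16 scale. In homozygous tumors it was at 0.89 (SE 0.4, adjusted p = 0.076), with no overlap with wild-type ganglia. The difference between hemizygous and homozygous tumors was 1.63 (SE 0.4, limma adjusted p = 0.023), and Shmt2 was the 1 of 9 members to pass there, against 6.21% of all genes and 3.46% higher. That call was lost without hemizygous tumor 4 (log2 1.34, adjusted p = 0.09) and without homozygous tumor 1, 2 or 3 (0.063, 0.053 and 0.067). Its second probe set gave 1.5 (limma adjusted p = 0.011, where 5.12% of probe sets passed), with 86.9 to 161.5 in hemizygous tumors against 22.7 to 37.1 in homozygous tumors, while the third and the fourth, which are dimmer, gave 0.55 and 0.49 and did not pass (0.18 and 0.47). Endothelial markers moved the same way, with 4 of 5 higher and a sum of 248 to 387 in hemizygous tumors against 103 to 128 in homozygous tumors, and 3 of 6 sympathetic neuron markers were lower, with a sum of 583 to 2526 against 1933 to 3147. The part of either in the result was not tested.

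Mthfd2, the folate enzyme that follows SHMT2 in mitochondria, read 821 and 949.6 in tumorspheres, 471 to 819.9 in hemizygous tumors, 687 and 697 in Mdk knockout tumors, 583 to 862 in homozygous tumors, 543 and 578 in homozygous ganglia, 199 and 1673 in neurospheres 1 and 2, and 325 to 503 in wild-type ganglia. All homozygous tumors were above all wild-type ganglia, but the difference of 0.81 did not pass (95% interval −0.02 to 1.64, limma adjusted p = 0.096), and passed when only these 8 arrays were fitted (0.0062).

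Of the 10 members 0 passed between Mdk knockout and homozygous tumors, where limma called 1 gene in all (0.00661%), which was Mdk. At an unadjusted p under 0.05 the count was 0 of 10 members and 1.32% of all genes. Atf4 had the lowest unadjusted p among the members, 0.093, at log2 0.71 with an interval of −0.13 to 1.54. Its means there were 807 in knockout and 514 in homozygous tumors. The second Atf4 probe set differed less, with means of 551 and 481. Psat1 was at 0.13 (−0.25 to 0.51), the narrowest interval, while Trib3 at 0.73 had one of −1.24 to 2.7. The knockout group had 2 arrays, and the intervals cover sizable differences in most members. The intervals use the spread pooled over all 7 groups, so their widths are not those of the tumors alone. The SD of log2 values was 0.18 in knockout tumors and 4.15 in neurospheres for Trib3, and 0.03 and 0.15 for Psat1.

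**Figure D3:**
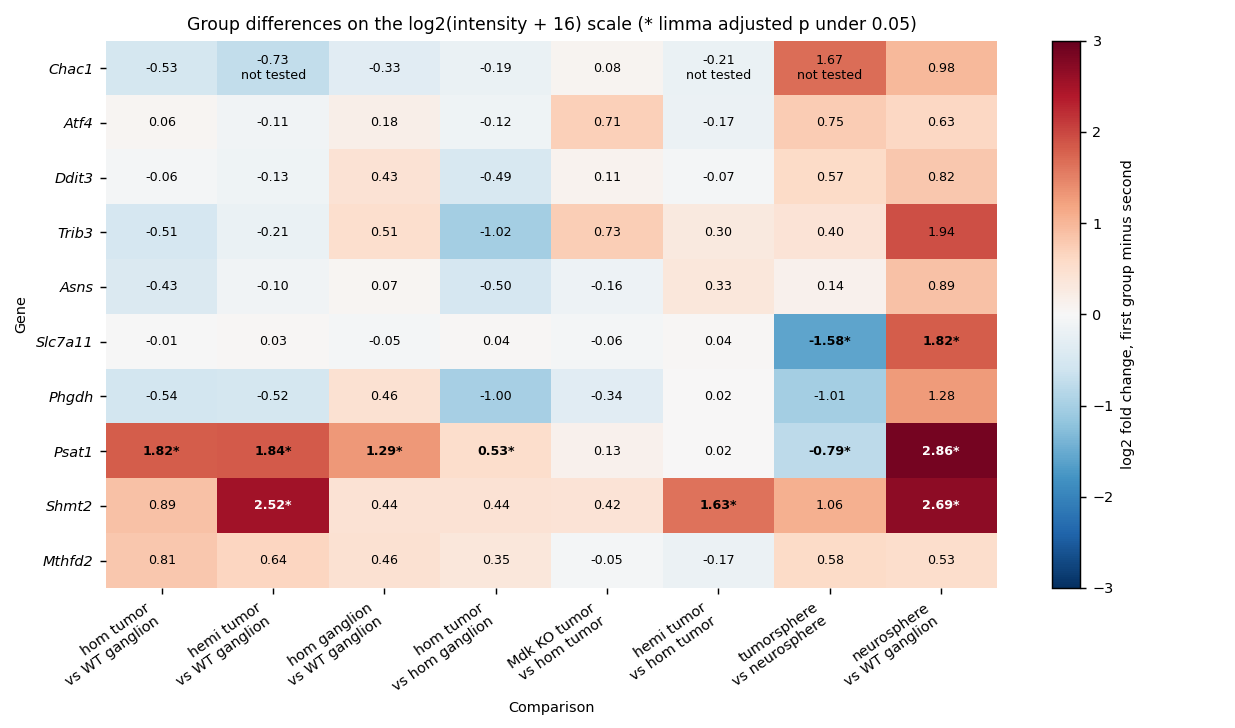
Log2 fold change (first group minus second, on the log2(intensity + 16) scale) of the 10 genes in the 8 comparisons, with an asterisk for a limma adjusted p under 0.05 and Chac1 marked as not tested where the groups used to choose it take part. Psat1 passed in 6 of the 8 comparisons and Shmt2 in 3, Slc7a11 carries asterisks only in the neurosphere comparisons through which it entered the test, and the 5 genes from Chac1 to Asns passed in none. The spread behind these calls is pooled over all 7 groups, and that of these 5 genes was widest in neurospheres.

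The other genes of these pathways were counted over lists that hold no member. Of 17 aminoacyl-tRNA synthetases tested, 10 rose and 0 fell in homozygous tumors against wild-type ganglia (median log2 1.05), where 23.1% of all genes were higher, and 13 rose and 0 fell in hemizygous tumors (1.4), where 27% were. Vars, which charges valine tRNA, averaged 346 ± 52.5 in hemizygous tumors and 18.1 ± 18.5 in wild-type ganglia (SD, n = 4 each), and Kars, the lysine enzyme, 1560 ± 194 and 301 ± 118. Against wild-type ganglia 1 and 2 alone, 5 of the synthetases rose and 1 fell in homozygous tumors, where 49.1% of all genes passed. In hemizygous tumors 8 rose against these ganglia, where 51.4% of all genes passed in either direction, so that share is not one of higher genes alone.

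Of 20 further serine, glycine and one-carbon genes tested, 12 rose and 1 fell in hemizygous tumors (median 0.78), where 52.6% of all genes passed and 27% were higher, and 10 rose and 2 fell in homozygous tumors (0.58), where 49.8% passed and 23.1% were higher. Shmt1, the cytosolic counterpart of Shmt2, averaged 446 ± 71.2 in hemizygous tumors, 212 ± 18.3 in homozygous tumors and 18.6 ± 28.5 in wild-type ganglia (SD, n = 4 each), a rise of 4.02 and 3.01 (limma adjusted p = 7.5e-08 and 3.2e-06). In homozygous ganglia Shmt1 was 113 ± 21.6 (SD, n = 2), a rise of 2.18 (0.0078), and it was 1 of 2 genes of the list to pass there. Mthfd1, the cytosolic folate enzyme, rose in hemizygous tumors, with 1100 ± 279 against 277 ± 71.8 in wild-type ganglia. Ahcy, which clears S-adenosylhomocysteine after methylation, rose in homozygous tumors, with 1110 ± 60.8 against 311 ± 152 in wild-type ganglia (SD, n = 4 each throughout).

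A list of integrated stress response targets beyond the members is called ATF4 targets here, whether or not ATF4 acts on each gene directly. Of 31 tested, 6 rose and 7 fell in homozygous tumors (median −0.16), where 49.8% of all genes passed. In hemizygous tumors 7 rose and 5 fell (−0.11), where 52.6% did. Those with the lowest p were Aldh1l2, a mitochondrial folate dehydrogenase at 189 ± 20.5 in homozygous tumors against 40.8 ± 8.65 in wild-type ganglia, Aldh18a1, which starts proline synthesis, at 427 ± 65.3 against 77 ± 24.5, and the lipoprotein receptor Vldlr, which fell, at 201 ± 37 against 574 ± 168 (SD, n = 4 each). Aldh1l2 was also the 1 of 31 to pass in homozygous ganglia, with 104 ± 2.73 (SD, n = 2). Of 22 endoplasmic reticulum chaperones and their regulators, 5 rose and 2 fell in homozygous tumors and 3 rose and 1 fell in hemizygous tumors, beside the same shares of all genes.

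Genes of eIF2 signalling and of glutathione held both higher and lower ones, beside the 49.8% and 52.6% of all genes that passed in homozygous and hemizygous tumors. Of 16 eIF2 kinases and translation control genes, 7 rose and 3 fell in homozygous tumors and 9 rose and 3 fell in hemizygous tumors. Gcn1, an activator of the amino acid sensing kinase GCN2, averaged 142 ± 8.79 in hemizygous tumors, 99.8 ± 18.8 in homozygous tumors and 12.4 ± 8.93 in wild-type ganglia, while Impact, an inhibitor of the same kinase, averaged 341 ± 108 and 297 ± 79.4 in these tumors against 736 ± 112 (SD, n = 4 each). Of 18 glutathione, cystine and NRF2 target genes, 3 rose and 9 fell in homozygous tumors and 4 rose and 6 fell in hemizygous tumors. Txnrd1, a thioredoxin reductase, rose to 1060 ± 165 in homozygous tumors against 267 ± 63.2 in wild-type ganglia, and Srxn1, which repairs peroxiredoxins, fell to 48.4 ± 7.82 against 139 ± 33.6 (SD, n = 4 each).

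In tumorspheres against hemizygous tumors Chac1, Trib3, Ddit3, Atf4 and Asns stood high, while Slc7a11, at 8.79 or less in both groups, did not. This is described without a test, because Chac1 was chosen on the difference. Chac1 stood at log2 3.37, rank 1 of 15132 genes, followed among the members by Trib3 at 2.55, Ddit3 at 1.52, Atf4 at 1.49, Shmt2 at 1.23 and Asns at 1.14. Phgdh was at 0.78 on its brightest probe set, Mthfd2 at 0.46, Psat1 at 0.24 and Slc7a11 at 0.2. The other Phgdh probe sets stood further apart. The second read 160 to 369 in tumorspheres against 31.1 to 52.2 in hemizygous tumors. The third read 198 to 352 against 38.7 to 50.8, and the dimmest 159 to 315 against 67.7 to 88.0. Leaving out Chac1, 5 of 9 were above 1 by their brightest probe sets (median 1.14), where 3.87% of all genes were. Among the 31 other ATF4 targets 15 were above 1 (median 0.92), and those highest, chosen after their values were seen, were Eif4ebp1, a translation repressor, with 798 and 686 in tumorspheres against 70.6 to 155 in hemizygous tumors, and the arginine transporter Slc7a3, with 407 and 317 against 36.2 to 59.2. The tRNA synthetases (1 of 17 above 1, 5.88%), endoplasmic reticulum genes (1 of 22, 4.55%) and one-carbon genes (1 of 20, 5%) were near the 3.87% of all genes. Hspa5, the main chaperone of the endoplasmic reticulum, read 2408 and 2152 in tumorspheres and 1901 to 2480 in hemizygous tumors, and was also chosen after its values were seen.

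Stromal markers were near their floor in tumorspheres. All 6 fibroblast markers differed by more than 1 log2 unit, with a sum of 38.2 and 74.3 in tumorspheres against 2286 to 6158 in hemizygous tumors. Macrophage markers summed to 49.6 and 95.9 against 1616 to 3724, and endothelial ones to 13.6 and 17.3 against 248 to 387. Culture and the loss of these cells cannot be told apart here. Cell cycle markers summed to 10319 and 10337 in tumorspheres and 10763 to 11856 in hemizygous tumors.

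The 2 wild-type neurospheres differed from each other by more than the tumorspheres differed from tumors in 8 of the 10 genes, read by their brightest probe sets. Neurosphere 2 was above neurosphere 1 by log2 5.87 for Trib3, 2.98 for Ddit3, 2.98 for Mthfd2, 2.76 for Chac1, 2.49 for Shmt2, 2.26 for Asns, 2.18 for Phgdh, 2.08 for Atf4 and 1.42 for Slc7a11, and by 0.22 for Psat1. That is 9 of 10 above 1, where 7.64% of all genes were, and the median was 2.37 against −0.07. Of the other ATF4 targets 21 of 31 were above 1, and of the tRNA synthetases 15 of 17. The endoplasmic reticulum genes (4 of 22, 18.2%) and the one-carbon genes (5 of 20, 25%) had smaller shares, though also above the 7.64% of all genes. Cth, which makes cysteine, read 91.0 in neurosphere 1 and 1559 in neurosphere 2, Eif4ebp1 76.3 and 1373, and Psph, the last enzyme of serine synthesis, 76.4 and 500, while Hspa5 read 2419 and 1897. These genes were chosen after their values were seen. The second Psat1 probe set did differ, with 978 in neurosphere 1 and 2698 in neurosphere 2. With 1 array each, this difference has no replicate check.

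**Figure D4:**
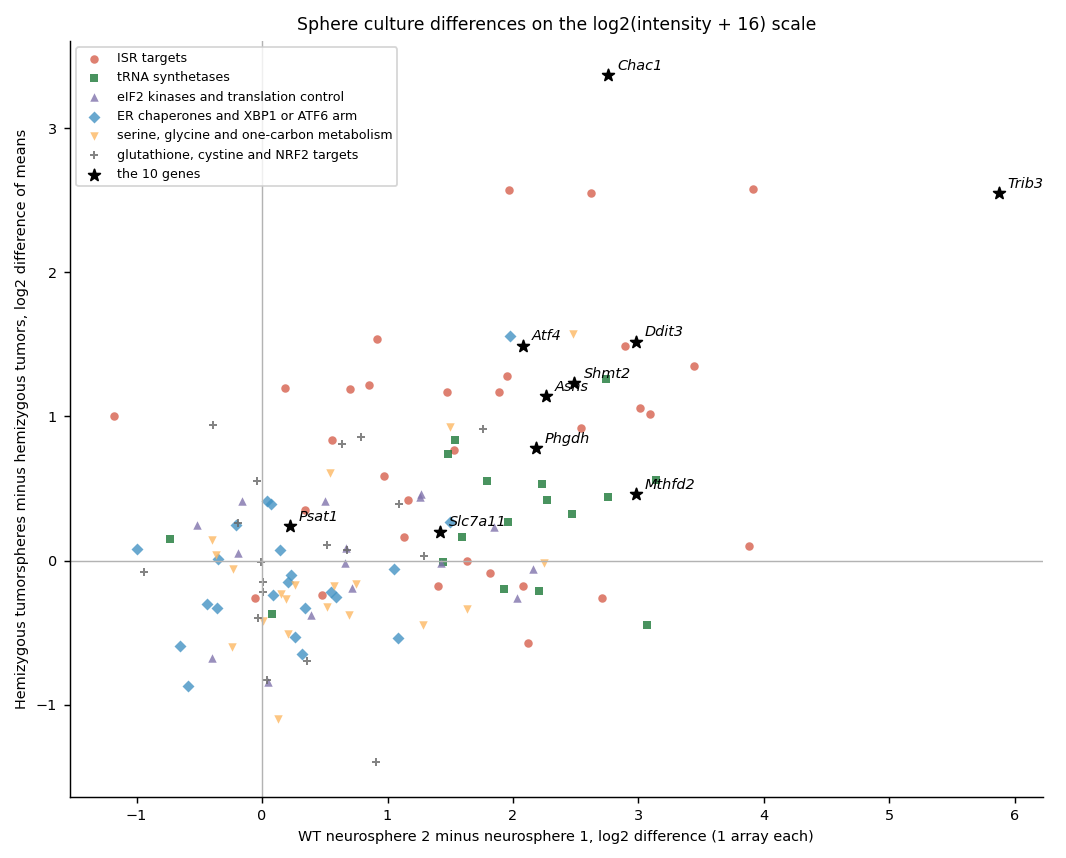
Each point is a gene of the 10 (stars, named) or of a pathway list, placed by the log2 difference of wild-type neurosphere 2 over neurosphere 1 (x axis, 1 array each) and of hemizygous tumorspheres over hemizygous tumors (y axis, group means). Trib3 and Chac1 lie far out on both axes, tRNA synthetases lie to the right near 0 on the y axis, and most endoplasmic reticulum genes lie nearer to 0 on both.

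Tumorspheres against neurospheres therefore gave results that turn on the neurosphere used. With both, 1 of the 8 members other than Chac1 and Slc7a11 passed, against 38.4% of all genes and 14.9% lower. It was Psat1, which fell by 0.79 (SE 0.21, limma adjusted p = 0.0061). The second Psat1 probe set read 995 to 1045 in tumorspheres and 978 to 2698 in neurospheres. These ranges overlapped, and that probe set did not pass when fitted by itself. Slc7a11 was at −1.58, by the difference that let it through the filter. Psat1 did not pass without tumorsphere 1 (−0.7, adjusted p = 0.057). Set against neurosphere 1 alone, 7 of these 8 passed, 6 of them higher in tumorspheres, against 38.6% of all genes and 23.3% higher. The 6 were Trib3 by 3.33, Shmt2 by 2.31, Mthfd2 by 2.07, Ddit3 by 2.06, Atf4 by 1.79 and Asns by 1.27 (adjusted p between 0.00011 and 0.0036). Against neurosphere 2 alone, 4 of the 8 passed, all lower in tumorspheres, against 27.8% of all genes and 11.1% lower, among them Trib3 at −2.54, Asns at −0.99 and Mthfd2 at −0.91 (limma adjusted p = 0.0041, 0.023 and 0.044). In these fits the lone neurosphere is assumed to vary like the other groups. Chac1, not tested here, read 334 and 618 in tumorspheres against 40.9 and 370 in neurospheres. Of the 31 other ATF4 targets, 6 rose and 7 fell with both neurospheres, 12 rose and 4 fell against neurosphere 1 alone, and 1 rose and 17 fell against neurosphere 2 alone.

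Neurospheres against wild-type ganglia showed 2 of the 9 members other than Slc7a11 higher, against 39.2% of all genes in either direction and 16.8% higher. Psat1 rose by 2.86 (SE 0.18, limma adjusted p = 9.3e-10) and Shmt2 by 2.69 (SE 0.49, 0.00027). Both passed with either neurosphere alone. Slc7a11 was at 1.82, again by the difference that let it through the filter. With neurosphere 2 alone all 9 rose, where 34.8% of all genes passed and 15.6% were higher. With neurosphere 1 alone 2 rose, where 29.3% passed and 12.8% were higher, and Mthfd2 fell, at −0.96 (limma adjusted p = 0.02). The other ATF4 targets followed the same split: 15 of 31 rose with both neurospheres, 25 with neurosphere 2 alone and 8 with neurosphere 1 alone. For tRNA synthetases the counts of 17 were 7, 14 and 1.

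Aldh1l1, a cytosolic folate dehydrogenase that marks astrocyte-lineage cells, averaged 419 ± 110 in neurospheres (SD, n = 2) against 12.9 ± 6.55 in wild-type ganglia (SD, n = 4), and Gldc, of the glycine cleavage system, 291 ± 31.4 against 4.99 ± 2.62. Both rose (limma adjusted p = 3.4e-09 and 3.5e-06), and both passed without neurosphere 1 (log2 4.18 and 3.98) and without neurosphere 2 (3.66 and 3.77). Tumorspheres read 8.85 ± 0.545 for Aldh1l1 (SD, n = 2). Phgdh, on the second and the third probe set, rose by 3.32 and 3.02 in neurospheres against wild-type ganglia (limma adjusted p = 4.9e-07 and 6.5e-07, where 34.4% of probe sets passed), and fell by 2.99 and 2.67 in tumorspheres against neurospheres (1.3e-05 and 2.1e-05, where 32.2% passed). With neurosphere 2 alone these differences were 3.99 and 3.81 and then −3.66 and −3.46, and with neurosphere 1 alone 2.64 and 2.23 and then −2.31 and −1.88, and all passed. The brightest Phgdh probe set gave 0.19 and 0.08 with neurosphere 1 alone (limma adjusted p = 0.88 and 0.95).

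The genes most like Chac1 in their log2 values over the 20 arrays were P2rx3, an ATP-gated channel of sensory neurons (Pearson 0.94), Sgsm2 (0.92), Stc2, a secreted glycoprotein (0.88), Dusp4, a MAP kinase phosphatase (0.87), and Golm1, a Golgi protein (0.85). P2rx3 read 222 and 292 in tumorspheres, 17.5 and 150 in neurospheres, and 33.4 or less in every tumor and ganglion. Among the members the likeness to Chac1 was 0.84 for Trib3 and Asns, 0.8 for Atf4 and Ddit3, and 0.58 for Shmt2. It was 0.56 for Phgdh, 0.5 for Slc7a11, 0.46 for Mthfd2 and 0.22 for Psat1. The 20 arrays include the tumorspheres and hemizygous tumors whose difference chose Chac1, so its likeness to genes high in tumorspheres is description only. These points share groups, and few high arrays carry the values: Spearman's rho was 0.49 for P2rx3, 0.56 for Trib3, −0.1 for Shmt2 and 0.04 for Psat1. Phgdh was most like Sil1 (0.92), a cofactor of the chaperone BiP, and Cpxm1 (0.89), Metrn (0.88), Rrbp1 (0.83) and Aldh1a3 (0.82), and its likeness to Psat1 was 0.11. Metrn, a secreted factor of glia and neuronal progenitors, split the wild-type ganglia as the brightest Phgdh probe set did, with 181 and 143 in ganglia 1 and 2 and 17.6 and 18.1 in ganglia 3 and 4. Markers chosen after their values were seen did so too: muscle Myh4 (2100, 853, 14.6 and 5.34 in ganglia 1 to 4) and liver Alb (1588, 393, 25.4 and 12.3). Liver Apoa2 did not (94.6, 39.5, 43.9 and 30.5). Glial markers were mixed, with S100b at 160, 266, 77.6 and 60.3 and Fabp7 at 4070, 4714, 5102 and 5031. What lies behind the split was not tested.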

How the data were processed

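Per the labels' protocols, frozen tissue was homogenized in Isogen and 40 ng of total RNA per sample went through 2 amplification cycles into labelled cRNA. The deposited values are linear probe set intensities. With 2% trimmed off both ends, every array averages 100, so the authors had scaled the arrays, with software not stated in the sources used here. Intensities were taken to log2(intensity + 16) without further normalization, because array medians spanned 0.33, under the limit of 0.5. Of 45037 probe sets without controls, the platform annotation gave 34945 a single symbol, 932 several and 9160 none, and 34741 were matched by gene identifier to the GRCm38.p6 table. The probe set of highest mean stood for its gene, and 15132 of 18193 genes were above the 40th percentile of their array on at least 2 arrays, including all 10 members. One limma fit (3.58.1, R 4.3.3) held all 20 arrays and 7 group means, with two-sided tests adjusted by Benjamini-Hochberg at 0.05. The steps were tested on simulated arrays. The number of arrays limits the precision. Members and lists were chosen with earlier results of these data known. Named genes, besides those said to be chosen after their values were seen, are all members, up to 3 genes with the smallest p per list and comparison, and the 5 genes most like Chac1 and Phgdh. Alternatives covered normalization, pseudocount, filter, probe set choice, arrays in the fit, replicate block and left-out arrays.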

Additional observations from a re-analysis of the deposited data

Results flagged for a closer look

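Psat1 in hemizygous tumor 4 stood below the other tumors of its group, at 1200 against 1350 to 1390, a gap of 0.84 of the group's range. Chance alone gives such a gap in about 1 of 20 groups of this size. Its lower value leaves Psat1 in that tumor above the 310 to 417 of wild-type ganglia.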

How the results depend on the processing

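Of 1417 single member values recomputed under the alternatives, 1359 kept their side of the threshold, 89 of them with a change of sign where neither value passed, 18 lost and 36 gained a call, and 4 turned direction with a call. Counts here include Slc7a11. For tumorspheres against neurospheres, 1 member passed with quantile normalization, 1 with a 60th percentile filter, 4 with the mean of all probe sets and 0 with only the compared arrays. For homozygous tumors against homozygous ganglia, 0 passed with median centring, with a pseudocount of 1 or with the replicate block, 2 with the mean of all probe sets and 5 with only the compared arrays. For hemizygous against homozygous tumors, 0 passed with a pseudocount of 1. For homozygous tumors against wild-type ganglia the counts were 2 with the mean of all probe sets, 4 with only the compared arrays, and 2 with wild-type ganglia 1 and 2 or 3 and 4 alone. For homozygous against wild-type ganglia they were 0 with only the compared arrays and 2 with ganglia 3 and 4 alone, and for neurospheres against wild-type ganglia 6 with the mean of all probe sets. Leaving out 1 array gave 0 to 1 for homozygous tumors against homozygous ganglia and for hemizygous against homozygous tumors, 1 to 8 for tumorspheres against neurospheres, and 3 to 10 for neurospheres against wild-type ganglia. Without neurosphere 1 or 2, tumorspheres minus neurospheres was −2.54 or 3.33 for Trib3, −0.99 or 1.27 for Asns and −0.91 or 2.07 for Mthfd2, and neurospheres minus wild-type ganglia was 2.01 or −0.96 for Mthfd2. The cause of these changes was not tested, beyond the arrays left out. Genes called in homozygous against wild-type ganglia numbered 758, against 144 with only the compared arrays and 5283 with ganglia 3 and 4 alone. In homozygous tumors against homozygous ganglia they numbered 3271, against 6291 with only the compared arrays, 2354 with the replicate block, and 1468 and 841 without homozygous ganglion 1 and 2, and in hemizygous against homozygous tumors 939, against 557 with a pseudocount of 1. The labels do not say whether a shared replicate number pairs samples. Correlations of same-numbered deviations ran from 0.07 to 0.25 for homozygous tumors and wild-type ganglia. For hemizygous and homozygous tumors they ran from −0.31 to −0.13. These values cannot tell whether a number marks a shared batch. With the block, Psat1 in homozygous tumors against homozygous ganglia was at 0.58 (limma adjusted p = 0.061). Signals near background limit Slc7a11, Trib3 and Chac1 in tissue, and Trib3 in neurosphere 1.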

Other observations

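Homozygous ganglia, besides Psat1, had 4 of 124 genes of the pathway lists above wild-type ganglia and 0 below, where 3.99% of all genes were higher. Mthfd2l, a mitochondrial relative of Mthfd2, rose there, with 309 ± 47.2 in homozygous ganglia (SD, n = 2) against 161 ± 15.3 in wild-type ganglia (SD, n = 4) (limma adjusted p = 0.013), and Txnrd1 rose, with 486 ± 43.6 against 267 ± 63.2 (0.028). Between homozygous tumors and homozygous ganglia, Mthfd1 rose, with 740 ± 202 in the tumors (SD, n = 4) against 361 ± 4.78 in the ganglia (SD, n = 2), and Vars rose, with 185 ± 17.3 against 46.6 ± 3.65 (limma adjusted p = 0.016 each).

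Hemizygous and homozygous tumors differed in 3 of 124 genes of the pathway lists, where 6.21% of all genes passed. Fpgs, which retains folates in the cell, rose to 96 ± 11.7 in hemizygous tumors against 61.8 ± 7.5 in homozygous tumors. Hmox1, a haem-degrading enzyme, rose to 51.6 ± 36.6 against 12.7 ± 3.13, and Vldlr fell to 112 ± 19.8 against 201 ± 37 (SD, n = 4 each, limma adjusted p = 0.046, 0.039 and 0.047). In tumorspheres against neurospheres the ATF4 targets Gpt2, an alanine transaminase, and Ddit4, an inhibitor of mTORC1, fell, to 271 ± 1.16 and 187 ± 49.8 in tumorspheres against 1660 ± 458 and 3410 ± 1880 in neurospheres (SD, n = 2 each, limma adjusted p = 4.4e-06 and 1.4e-05). Nfe2l2, which encodes NRF2, fell to 119 ± 6.52 in tumorspheres against 1230 ± 219 in neurospheres (SD, n = 2 each, 6.3e-06). Gpt2, Ddit4 and Nfe2l2 passed without neurosphere 1 (log2 −2.8, −3.39 and −3.37) and without neurosphere 2 (−2.24, −4.57 and −3.01).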
